A study of Cricetulus griseus with 16 samples.

Results

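The SMAD genes and their inhibitors were followed through mild and moderate heat in CHO cells, a line that was derived from Chinese hamster ovary. The group had 10 names, Smad1, Smad2, Smad3, Smad4, Smad5, Smad6, Smad7, Ski, Skil and Smurf1, and it was chosen by the counts of Smad7, which were strongly higher at 42.5 °C than at 37 °C. Of these names 9 were found among the 20824 genes in the count table, and no gene there carried the name Smad1. Since 4423 genes are listed by identifier only, Smad1 was not analysed here. All 9 genes found passed the filter on low counts in every comparison.

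RNA was sequenced from 4 groups of CHO cells (ATCC CCL-61) that had been plated 24 h earlier, and each group comprised 4 biological repeats, A to D. One group stayed at 37 °C, 2 groups were held at 40 °C for 1 h or for 6 h, and the last was held at 42.5 °C for 1 h. The labels name no genetic change and no drug in any group. The cells are one established line, so the repeats describe cultures and not animals, and the serum in the medium of all groups is a source of TGF-β family ligands.

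The SMAD proteins carry signals of the transforming growth factor β (TGF-β) family from the cell surface to the nucleus. A ligand brings together type I and type II receptor kinases, the type I receptor phosphorylates receptor-regulated SMADs, and these join the common partner Smad4 and bind to target genes. Smad2 and Smad3 serve TGF-β and activin receptors, and Smad1, Smad5 and Smad9 serve receptors of bone morphogenetic proteins (BMPs). Smad6 and Smad7 are inhibitory SMADs that are themselves transcribed in response to these signals, so the pathway carries its own brake. Ski and Skil (SnoN) are corepressors that hold SMAD complexes inactive on DNA, and Smurf1 is a ubiquitin ligase that marks SMADs and, together with Smad7, receptors for degradation.

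Levels are given as CPM, read counts scaled to library size with TMM factors, and total counts lay between 10504192 and 14668365 per library. A floor of 3 counts corresponds to 0.205 to 0.286 CPM, which covers counting error only. The library of 37 °C repeat D stood apart. The study left 1 control sample out, and D was the only library whose counts were not identical to the study's table of changed genes (36 of 920 counts, against 920 of 920 for each of the other 15). It was left out here as well, and the 37 °C values below are those of A, B and C. In D, 6 of the 9 genes lay below all of A to C and 3 lay within their range. The share of all genes below that range in D was not computed, so the count says nothing particular to the group. The lowest relative to the mean of A to C were Skil (-1.30 on the log2 scale), Smad3 (-1.08) and Smad5 (-0.94). The heat labels were checked by 2 chaperone genes. Dnajb1 had means of 28.4 CPM at 37 °C, 87.5 and 44.6 CPM after 1 h and 6 h at 40 °C, and 394 CPM at 42.5 °C. For Hspb1, which encodes the small heat shock protein Hsp25, the means were 53.9, 117, 156 and 425 CPM in the same order. Of the cell type markers, Vim lay between 2010 and 2330 CPM in the group means. Epcam and the granulosa markers Foxl2, Fshr and Cyp19a1 were at or near 0. The epithelial marker Cdh1 and the granulosa marker Amh had group means of 1.8 to 2.91 and 2.72 to 4.84 CPM. The keratin genes Krt8 and Krt18 were not found by name. In bulk RNA, fewer cells of a type and less RNA per cell cannot be told apart.

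Smad7, which binds activated type I receptors and recruits Smurf ligases to them, had few counts at 37 °C and a level 6.33 times as high after 1 h at 42.5 °C. The 3 control libraries held 5.55, 3.21 and 5.09 CPM, from 79, 44 and 59 counts. At 40 °C for 1 h the libraries held 5.51, 5.07, 5.3 and 3.49 CPM, and at 40 °C for 6 h they held 3.71, 4.12, 4.18 and 2.88 CPM. At 42.5 °C they held 27.9, 34, 28.7 and 27.1 CPM, from 309, 344, 296 and 343 counts. Every 42.5 °C library thus lay far above every other library, while the other 3 groups overlapped with each other. Among all genes tested, the 42.5 °C group did not overlap with 37 °C in 46% and with 40 °C for 1 h in 34.1%.

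By mean, the lowest group was that of 6 h at 40 °C (3.72 ± 0.597 CPM, SD, n = 4), followed by the controls (4.62 ± 1.24, n = 3), the 1 h group at 40 °C (4.84 ± 0.919, n = 4) and the 42.5 °C group (29.4 ± 3.1, n = 4). The first 3 groups in this order did not differ beyond their spread. The fitted log2 fold change at 42.5 °C was 2.66 (SE 0.141, 6.33-fold) against 37 °C. With single libraries left out in turn it lay between 2.45 and 2.83. At equal time, against 40 °C, it was 2.58 (SE 0.121, 6-fold). Because this rise chose the group, it is given as a description with no test.

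At 40 °C the log2 fold change of Smad7 against 37 °C was 0.08 (SE 0.194) at 1 h and -0.31 (SE 0.194) at 6 h. The 95% intervals of these 2 differences ran from -0.30 to 0.46 and from -0.69 to 0.07. The 37 °C counts of Smad7 are among the values that chose the group, so both differences are given as descriptions with no test. Neither group held at 40 °C entered that choice. The change from 1 h to 6 h at 40 °C was -0.38 (SE 0.169) and did not pass the test (adjusted p = 0.125, edgeR quasi-likelihood test with Benjamini-Hochberg adjustment over all genes). Among the 14 alternative fits it passed the adjusted p threshold only without 40 °C 1 h repeat D (-0.51, adjusted p = 0.0349).

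**Figure D1:**
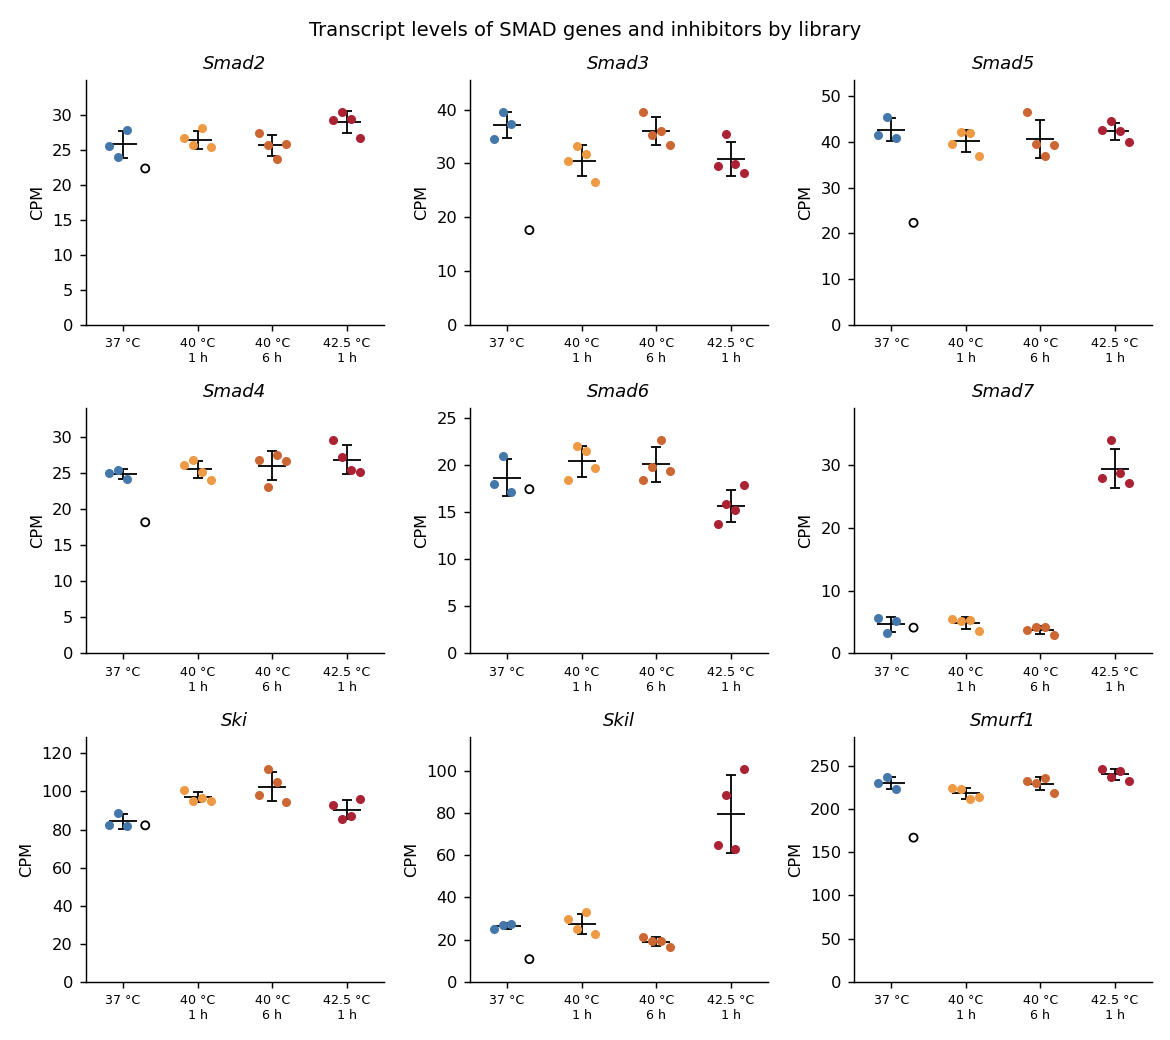
Levels (CPM scaled by TMM, linear axes from 0) of the 9 genes in each library. Filled points are the libraries used, horizontal lines and bars are group means ± SD (n = 3 at 37 °C, n = 4 in the heated groups), and the open circle is 37 °C repeat D, which was left out. Smad7 at 42.5 °C lies between 27.1 and 34 CPM against at most 5.55 CPM elsewhere, and Skil at 42.5 °C lies between 63 and 101 CPM against at most 33.2 CPM elsewhere.

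Skil, the corepressor SnoN, was the other gene of the group with a much higher level at 42.5 °C, and it was the one that moved down during prolonged mild heat. The control libraries held 24.9, 26.9 and 27.3 CPM. The 42.5 °C libraries held 64.9, 88.3, 63 and 101 CPM, all above every library of the other groups, with a mean of 79.4 ± 18.5 CPM (SD, n = 4). The log2 fold change at 42.5 °C was 1.59 (SE 0.138, 3.01-fold) against 37 °C and 1.52 (SE 0.141, 2.88-fold) against 40 °C for 1 h. These are again descriptions, since they rest on the 42.5 °C libraries that chose the group.

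After 1 h at 40 °C, Skil held 29.5, 25, 33.2 and 22.4 CPM, which overlapped with the controls (log2 fold change 0.06, SE 0.107, adjusted p = 0.831). After 6 h at 40 °C it held 21.3, 19.3, 19.2 and 16.3 CPM. All 4 of these libraries lay below the 3 controls and below all 4 libraries of 1 h. Groups did not overlap in 36.2% of all genes tested against 37 °C and in 21.3% against 1 h. Against 1 h the log2 fold change was -0.54 (SE 0.111, adjusted p = 0.00361). Neither of these groups entered the rise of Smad7 that chose the group, but members were chosen with earlier results of these data known. The difference from 1 h was past the adjusted p threshold in all 14 alternative fits (adjusted p from 6.74e-05 to 0.0152). Its fold stayed short of 1.5 except without 40 °C 1 h repeat D (log2 fold change -0.62) or without 40 °C 6 h repeat A (-0.59). Against 37 °C it was -0.48 (SE 0.0882, adjusted p = 0.000739), and these controls are shared with the comparison that chose the group. With 37 °C repeat D added, the latter became -0.25 (adjusted p = 0.544), since D held 10.7 CPM of Skil, below every heated library.

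Ski, the paralog of Skil and the founding member of this corepressor family, differed from Skil in its pattern. Its libraries held 82.3, 88.5 and 81.9 CPM at 37 °C, and 101, 95.1, 96.8 and 95.2 CPM after 1 h at 40 °C. After 6 h at 40 °C they held 98.3, 112, 105 and 94.6 CPM. Every library held at 40 °C thus lay above every control, at both times. Groups did not overlap in 13.4% of all genes tested at 1 h and in 36.2% at 6 h, and in 2 of the 9 genes each time. The increase of Ski was modest, with a log2 fold change of 0.21 at 1 h (SE 0.0472, adjusted p = 0.0387) and of 0.28 at 6 h (SE 0.0613, adjusted p = 0.00241, 1.22-fold). As with Skil, these controls are shared with the comparison that chose the group.

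The difference of Ski at 6 h passed the adjusted p threshold in all 14 alternative fits. That at 1 h passed in 7 of 14, with adjusted p between 0.00436 and 0.316, and it failed without any 1 of the control libraries, without 40 °C 1 h repeat A or C, with all 4 controls and in 1 fit over the 4 groups. From 1 h to 6 h at 40 °C the change was 0.08 (SE 0.0545, adjusted p = 0.325). At 42.5 °C the Ski libraries held 93.1, 85.5, 86.9 and 96 CPM and overlapped with the controls, at a log2 fold change of 0.10 (SE 0.0532).

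Smad6, the inhibitory SMAD that acts mainly on BMP signals, did not share the pattern of Smad7. Its libraries held 17.9, 20.9 and 17.1 CPM at 37 °C, and 18.4, 22, 21.4 and 19.7 CPM after 1 h at 40 °C. After 6 h at 40 °C they held 18.4, 19.8, 22.6 and 19.3 CPM, and at 42.5 °C they held 13.7, 15.8, 15.2 and 17.8 CPM. The 42.5 °C libraries all lay below the 4 libraries of 40 °C for 1 h and overlapped with the controls, by 1 library. Against 40 °C for 1 h, 34.1% of all genes tested had groups without overlap. The log2 fold changes at 42.5 °C were -0.26 (SE 0.103) against 37 °C and -0.38 (SE 0.0925) against 40 °C for 1 h, opposite in sign to those of Smad7. At 40 °C the differences from 37 °C were 0.12 (SE 0.0928, adjusted p = 0.584) at 1 h and 0.10 (SE 0.0959, adjusted p = 0.472) at 6 h.

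Smurf1, the ubiquitin ligase, had the most counts of the group (2401 to 3304 per library). The control mean was 230 ± 6.92 CPM (SD, n = 3), and the means after 1 h and 6 h at 40 °C were 219 ± 6.03 and 230 ± 7.2 CPM, with 240 ± 6.41 CPM at 42.5 °C (n = 4 each). The 42.5 °C libraries (247, 237, 244 and 233 CPM) lay above all libraries of 40 °C for 1 h (225, 223, 212 and 214 CPM), at a log2 fold change of 0.13 (SE 0.0382), and they overlapped with the controls (230, 237 and 223 CPM). In the former comparison 34.1% of all genes tested had groups without overlap. The differences from 37 °C at 40 °C did not pass the test (adjusted p = 0.433 at 1 h and 0.942 at 6 h). For 6 h against 1 h the adjusted p was 0.26.

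Among the SMADs that transmit the signal, Smad3, which binds DNA in response to TGF-β and activin, had lower means after both 1 h treatments. Its libraries held 34.6, 39.5 and 37.3 CPM at 37 °C, and 30.5, 33.3, 31.7 and 26.6 CPM after 1 h at 40 °C. After 6 h at 40 °C they held 39.6, 35.2, 36 and 33.4 CPM, and at 42.5 °C they held 29.6, 35.4, 29.8 and 28.2 CPM. The 1 h libraries at 40 °C lay below all controls and below all libraries of 6 h, whereas those at 42.5 °C overlapped with the controls by 1 library. For 1 h at 40 °C, groups did not overlap in 13.4% of all genes tested against 37 °C and in 21.3% against 6 h.

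Against 37 °C the log2 fold change of Smad3 at 40 °C for 1 h was -0.28 (SE 0.0773, adjusted p = 0.0866), short of the threshold, which it passed in 3 of 14 alternative fits (adjusted p from 0.0251 to 0.952), namely with no filter, with the repeat letter as a block and without 40 °C 1 h repeat B. From 1 h to 6 h at 40 °C it was 0.24 (SE 0.076, adjusted p = 0.038). That difference lost the threshold with 6 of the 8 libraries left out in turn (adjusted p up to 0.0998), namely 40 °C 1 h repeats A, C and D and 40 °C 6 h repeats A, B and C. At 42.5 °C the values were -0.28 (SE 0.0792) against 37 °C and 0.0006 (SE 0.0836) against 40 °C for 1 h, with a 95% interval of the latter from -0.16 to 0.16. With all 4 controls the former was -0.074, since 37 °C repeat D held 17.6 CPM of Smad3, below every other library.

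Smad2, the other SMAD of TGF-β and activin receptors, held 25.5, 23.9 and 27.8 CPM at 37 °C and 29.2, 30.4, 29.3 and 26.7 CPM at 42.5 °C. These groups overlapped by 1 library at 42.5 °C, at a log2 fold change of 0.16 (SE 0.0752). In the 40 °C groups it ranged from 23.7 to 28.1 CPM. Smad5, which serves BMP receptors, had means between 40.1 and 42.6 CPM in the 4 groups, and Smad4, the common partner, had means between 24.9 and 26.9 CPM. For Smad4 and Smad5 all groups overlapped. None of these 3 genes passed the test in a comparison among the groups at 37 °C and 40 °C, where adjusted p values lay between 0.471 and 0.965.

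Against this background, calls in the group were few. A gene was called when its adjusted p was under 0.05 and its fold change at least 1.5 either way. At 42.5 °C against 37 °C, 2 of the 9 genes were called, Smad7 and Skil, both higher, beside 7.51% of the 10470 genes tested. Against 40 °C for 1 h the called genes were again Smad7 and Skil, beside 5.27% of all genes. These comparisons share the 42.5 °C libraries with each other and with the choice of the group, so nothing is read from the counts.

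At 40 °C against 37 °C, 0 of 9 genes were called by edgeR and by DESeq2 at 1 h, beside 0.334% of all genes, and 2 had an unadjusted p under 0.05. At 6 h, 0 of 9 were called by both tools, beside 3.11% of all genes, and 2 had an unadjusted p under 0.05. Between 6 h and 1 h, 0 of 9 were called by both tools, beside 1.28%, and 3 had an unadjusted p under 0.05. The shares of all genes at an unadjusted p under 0.05 were not computed, so nothing is read from those counts. By adjusted p alone, 1 of 9 genes passed at 1 h (Ski) beside 1.64% of all genes, 2 at 6 h (Ski and Skil) beside 29.4%, and 2 between 6 h and 1 h (Skil and Smad3) beside 18.5%. The corresponding shares of all genes at 42.5 °C were 43.1% against 37 °C and 36.1% against 40 °C for 1 h, with 3 and 4 of the 9 genes. At 40 °C, counts of 1 or 2 among 9 genes are too small to be weighed against the shares of all genes, so nothing is read from them. The median log2 fold change of the 9 genes lay between -0.01 and 0.10 in the 5 comparisons, and that of all genes tested lay within 0.003 of 0.

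**Figure D2:**
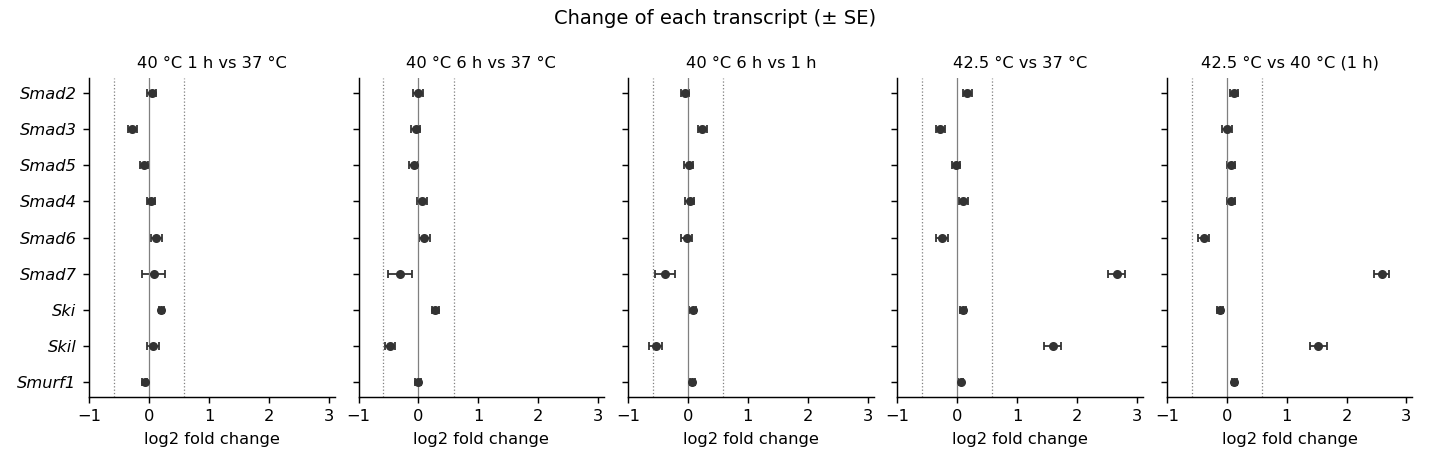
Log2 fold changes ± SE (x axis) of the 9 genes (y axis, ordered by role) in the 5 comparisons, with dotted lines at a 1.5-fold change either way. Smad7 and Skil lie at 2.66 and 1.59 at 42.5 °C against 37 °C, and in the comparisons among 37 °C and 40 °C every gene lies between the dotted lines.

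The rest of the pathway was described from 7 lists by role, with 161 names, of which 155 were found and 101 were tested against 37 °C (100 between heated groups). The ligands and the receptors held no call in any of the 5 comparisons. Of 28 ligand genes found 6 passed the filter, and of 14 receptor genes 11 did. At an unadjusted p under 0.05 there were 0 to 4 ligands and 2 to 7 receptors per comparison, and DESeq2 called 0 of either. The share of all genes at that unadjusted p was not computed. By adjusted p alone, 4 receptors were higher and 3 lower at 42.5 °C against 37 °C, and 1 ligand was lower, beside 43.1% of all genes. Against 40 °C for 1 h, 3 receptors were higher and 2 lower, and 4 ligands were lower, beside 36.1%. At 42.5 °C the largest receptor difference was in Acvr1, a type I receptor of BMPs, at 54 CPM against 35.9 CPM in the controls (log2 fold change 0.58, just under the fold threshold). Tgfb1, the main TGF-β ligand, was at 51 and 50.9 CPM, and the receptor Tgfbr2 at 161 and 159 CPM. Smurf2, the paralog of Smurf1, was at 192 against 153 CPM (log2 fold change 0.32). These 4 genes were chosen after their values were seen.

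At 42.5 °C against 37 °C, 12 of the 101 tested pathway genes (11.9%) were called, 7 higher and 5 lower, beside the 7.51% of all genes. Of 17 TGF-β target genes tested, 3 were called higher. Junb, an AP-1 subunit, held 173, 182, 183 and 169 CPM at 42.5 °C against 67.5, 59.3 and 60.8 CPM in the controls, far apart (log2 fold change 1.49, SE 0.0528). Bhlhe40, a transcriptional repressor, had a log2 fold change of 0.99 (SE 0.147) and Snai1 had 0.73 (SE 0.241), with overlapping groups (2.07 to 4.56 CPM against 1.64 to 2.32 CPM). The median of the 17 genes was -0.05, and the lowest log2 fold change among them was -0.55, short of the fold threshold. By adjusted p alone, 6 of the 17 were higher and 3 lower, beside 43.1% of all genes.

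Of 11 BMP target genes tested, 2 were called higher and 1 lower at 42.5 °C. Id1, an inhibitor of basic helix-loop-helix factors, held 53.4, 61.4, 61.9 and 85 CPM against 26.1, 21.5 and 23.1 CPM (log2 fold change 1.47, SE 0.128). Dlx2, a homeobox factor, held 54.9, 78.4, 73 and 73.8 CPM against 29, 30.6 and 28.9 CPM (1.24, SE 0.0971). In both genes all 4 heated libraries were above all controls, in a comparison where groups did not overlap in 46% of all genes tested. Rgma, listed as a target and known as a BMP co-receptor, was lower (-0.67, SE 0.131). The median of the 11 genes was 0.12.

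Among the 19 tested nuclear partners of SMADs, 2 were called higher and 2 lower at 42.5 °C. The coactivator Crebbp (0.83, SE 0.0835) and the factor Sp1 (0.71, SE 0.0764) were higher. The corepressor Tgif1 was lower, with 10.7, 10.1, 9.89 and 11.5 CPM against 16.7, 15.3 and 19.1 CPM (-0.69, SE 0.103). Foxh1 (-1.08, SE 0.312) was lower at means of 0.881 against 1.78 CPM, with overlapping groups. Of 26 intracellular regulators tested, 2 were called, both lower. They were Pias4, a SUMO ligase, with 19.2, 18.5, 17.5 and 20.5 CPM against 34.8, 30.9 and 30.2 CPM (-0.76, SE 0.0796), and Lemd3, an inner nuclear membrane protein that binds SMADs (-0.66, SE 0.0773). With all 4 controls the calls of Lemd3 (-0.51) and Snai1 (0.71) were lost, and that of Foxh1 was lost without 37 °C repeat A (-0.91). Snai1 also lost its call without 37 °C repeat B or C or 42.5 °C repeat C (0.57 to 0.74). The 12 extracellular regulators tested held no call by edgeR or DESeq2. An unadjusted p under 0.05 was found for 5 of them, with no share of all genes computed beside it.

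At equal time, 42.5 °C against 40 °C for 1 h, 8 of 100 pathway genes (8%) were called, 5 higher (Junb, Bhlhe40, Dlx2, Id1 and Crebbp) and 3 lower (Foxh1, Tgif1 and Pias4), beside the 5.27% of all genes. The log2 fold changes were 1.40 for Junb, 1.23 for Bhlhe40, 1.06 for Dlx2, 1.03 for Id1 and 0.82 for Crebbp. They were -0.97 for Foxh1, -0.86 for Tgif1 and -0.85 for Pias4. The lists were compiled with earlier results of these data known, and the 42.5 °C libraries are shared by both comparisons.

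**Figure D3:**
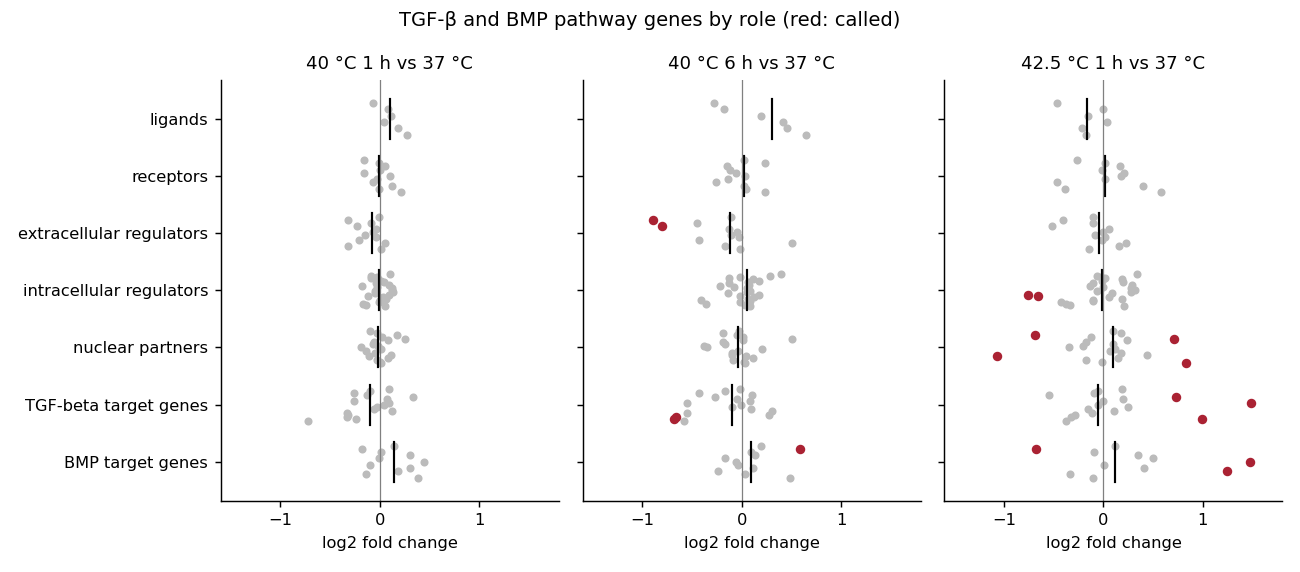
Log2 fold changes (x axis) of the tested pathway genes against 37 °C, by role (y axis), in panels for 1 h at 40 °C, 6 h at 40 °C and 42.5 °C. Each point is 1 gene, red points were called, and vertical bars are list medians. Calls number 0, 5 and 12 from left to right, and the ligand and receptor lists hold none.

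At 40 °C for 1 h, 0 of 101 pathway genes were called against 37 °C by edgeR and by DESeq2, beside the 0.334% of all genes called. By adjusted p alone 6 passed, beside 1.64% of all genes. An unadjusted p under 0.05 was found for 20, but the share of all genes at that threshold was not computed. After 6 h at 40 °C, 5 (4.95%) were called, 1 higher and 4 lower, beside the 3.11% of all genes. Of 12 extracellular regulators tested, 2 were called lower. Thbs1, an activator of latent TGF-β, held 67.4, 45.1, 60.3 and 58.6 CPM against 111, 104 and 107 CPM (log2 fold change -0.90, SE 0.0856, adjusted p = 2.23e-06), and Ltbp2, a latent TGF-β binding protein homolog, fell as well (-0.80, SE 0.12, adjusted p = 0.000123). The excluded 37 °C repeat D held 58.7 CPM of Thbs1, within the range of the 6 h libraries, and the gene remained called with D included (-0.72). Over the alternative fits the adjusted p of Thbs1 reached 0.041. Repeat D also held 8.9 CPM of Ltbp2, within the 6 h range of 7.25 to 10.2 CPM. Ltbp2 kept its call in the alternative fits, where its adjusted p reached 0.048. The TGF-β target genes Ccn1 (-0.66, adjusted p = 2.34e-06) and Bhlhe40 (-0.68, adjusted p = 0.00445) fell, of 17 tested. Bhlhe40 lost its call with all 4 controls (-0.55) and without 37 °C repeat A (-0.57).

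Rgma rose at 6 h, to 10.9 CPM from 7.29 CPM (log2 fold change 0.59, SE 0.115, adjusted p = 0.0012), at the edge of the fold threshold. It was not called by DESeq2 (0.58), with no filter (0.58), with all 4 controls (0.58), without 37 °C repeat A (0.53) or without 40 °C 6 h repeat C (0.52). In the comparison of 6 h with 1 h at 40 °C, 3 of 100 pathway genes (3%) were called, beside the 1.28% of all genes. Rgma (0.76, SE 0.107, adjusted p = 0.000203) and the matricellular TGF-β target Ccn2 (0.60, SE 0.0765, adjusted p = 0.000129) were higher at 6 h, and Junb was lower (-0.64, SE 0.0683, adjusted p = 2.15e-05). Ccn2 lost its call without 40 °C 1 h repeat A or D or 40 °C 6 h repeat C or D (0.53 to 0.58). Its mean was 50.6 CPM at 37 °C, 40.6 CPM after 1 h at 40 °C and 61.4 CPM after 6 h. The 6 h group was thus compared with a 1 h group that lay below 37 °C (log2 fold change -0.32). Junb thus stood at 42.9 CPM after 6 h at 40 °C, at 66.7 CPM after 1 h at 40 °C and at 177 CPM after 1 h at 42.5 °C.

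**Figure D4:**
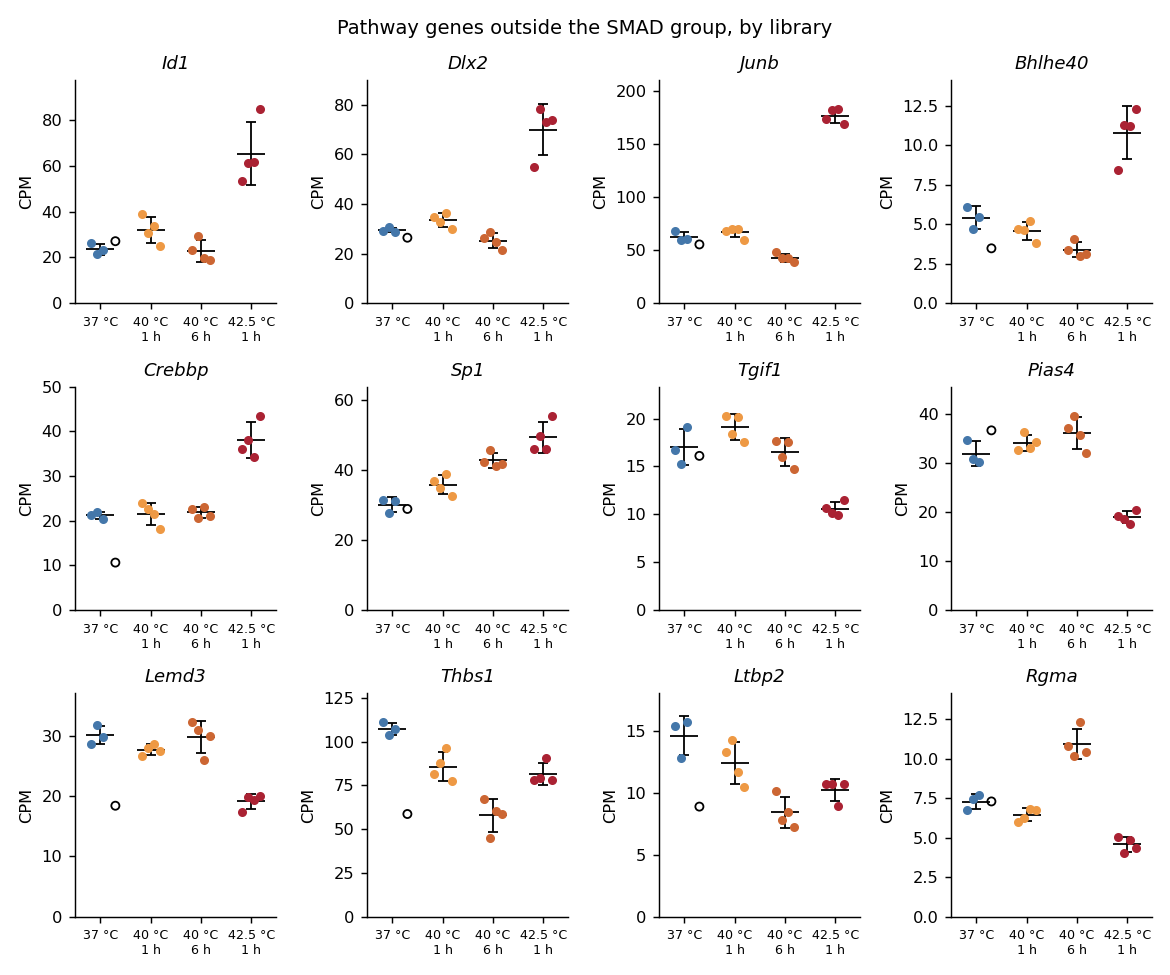
Levels (CPM scaled by TMM, linear axes from 0) in each library of 12 pathway genes that were called in at least 1 comparison. Filled points are the libraries used, lines and bars are group means ± SD (n = 3 at 37 °C, n = 4 in the heated groups), and the open circle is 37 °C repeat D. Id1, Dlx2, Junb, Bhlhe40 and Crebbp are highest at 42.5 °C with no overlap, and Tgif1 and Pias4 are lowest there.

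The genes most like Smad7 were sought by Pearson's r of log2 CPM over the 15 libraries, among 10626 other genes. The points share the libraries, and the r values mainly reflect the 42.5 °C group. The first 5 were Csrnp1 (r = 0.987), Kdf1 (0.975), Akap5 (0.974), Areg (0.972) and the unnamed gene ENSCGRG00001024520 (0.972). Csrnp1, which encodes a nuclear protein, had 18.6 CPM at 37 °C and 84.9 CPM at 42.5 °C. Areg, a ligand of the epidermal growth factor receptor, had 1.72 and 49.8 CPM. The other 3 genes had at most 2 counts in any library used outside 42.5 °C. Skil ranked 20 (r = 0.956), the closest of the group. Smad2 followed at 0.741 and Smurf1 at 0.609, then Smad4 at 0.348 and Smad5 at 0.231, and negative values were found for Ski (-0.313), Smad3 (-0.406) and Smad6 (-0.768).

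In the RefSeq annotation the neighbours of Smad7 are Ctif and Dym. Neither was called in any comparison, with log2 fold changes at 42.5 °C against 37 °C of 0.19 and 0.22, beside 2.66 for Smad7 itself. Smad3 and Smad6 are neighbours of each other. Their signs differed between comparisons, with both lower at 42.5 °C against 37 °C and opposite values at 40 °C for 1 h (-0.28 for Smad3 and 0.12 for Smad6).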

How the data were processed

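The authors deposited raw read counts per gene and library, whole numbers without normalization. Per their methods and the processing notes, libraries made from total RNA were sequenced with paired-end reads. Trimmed reads were mapped to CHOK1GS_HDv1 and counted in CLC Genomics Workbench. The annotation release, strandedness and treatment of reads with several mapping places are not given in the sources used here, so reads of the related Smad genes could be split differently by another counter.

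Groups were compared with edgeR 4.0.16 (glmQLFit and glmQLFTest) in R 4.3.3 on the libraries of both groups, with filterByExpr, TMM and Benjamini-Hochberg adjustment over all genes tested. Calls needed an adjusted p under 0.05 and 1.5-fold. CPM were scaled by TMM over 16 libraries. Named genes were all members, called genes of the pathway lists (at most 5 per list and comparison), the 5 genes with the highest r with Smad7 (log2 CPM, prior count 2), and Dnajb1 and Hspb1 as heat controls. Cell type markers and the genes next to Smad7 are named besides, and Acvr1, Tgfb1, Tgfbr2 and Smurf2 were chosen after their values were seen. Members and lists were chosen with earlier results of these data known. The 37 °C libraries are shared by all comparisons with 37 °C, among them the one that chose the group. Bambi and Grem1 stand in 2 lists. Neighbours come from RefSeq's CriGri-PICRH-1.0, by symbol.

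Alternatives were DESeq2 1.42.0 size factors and Wald test, no filter, at least 10 counts in every library, 1 fit over 4 groups, all 4 controls, a replicate block, adjusted p alone, each library left out and, for r, a prior count of 0.5. Repeat letters were not taken as pairs, since not every same-letter correlation was over 0.1 in any comparison. The lipid, protein and survival experiments were not analysed here.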

Additional observations from a re-analysis of the deposited data

Results flagged for a closer look

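Of 36 sets of 4 libraries (9 genes in 4 groups, 37 °C repeat D included), 2 held a library set apart from its group by Dixon's criterion, where chance gives about 1 in 20. Skil in 37 °C repeat D stood at 10.7 CPM, and the nearest control stood at 24.9 CPM. Ski in 37 °C repeat B stood at 88.5 CPM, and the nearest control stood at 82.3 CPM.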

How the results depend on the processing

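With adjusted p alone, calls among the 9 genes numbered 1 (40 °C for 1 h against 37 °C), 2 (40 °C for 6 h), 2 (6 h against 1 h) and 4 (42.5 °C against 40 °C), and calls among pathway genes numbered 6, 29, 22 and 47, and 56 at 42.5 °C against 37 °C. Calls among all genes then numbered 172, 3091, 1931 and 3767, and 4510 at 42.5 °C against 37 °C (35, 326, 134, 550 and 786 with the fold). With all 4 controls, 3 pathway genes were called at 40 °C for 6 h, and 3 of all genes at 40 °C for 1 h. With single libraries left out, 0 to 1 of the 9 genes and 2 to 6 pathway genes were called between 6 h and 1 h at 40 °C, and 23 to 56 of all genes at 40 °C for 1 h.

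Log2 fold changes near 0 changed sign in some settings, and the cause was not tested. With all 4 controls these were Smad5 (0.092) and Smurf1 (0.029) at 40 °C for 1 h, and Smad2 (0.040), Smad3 (0.15), Smad5 (0.10) and Smurf1 (0.10) at 6 h, and Smad5 at 42.5 °C against 37 °C (0.17). With single libraries left out, the ranges were -0.0083 to 0.10 for Smad2, -0.13 to 0.25 for Smad7 and -0.033 to 0.15 for Skil at 40 °C for 1 h. At 6 h they were -0.053 to 0.051 for Smad2, -0.094 to 0.0049 for Smad3 and -0.025 to 0.022 for Smurf1. Between 6 h and 1 h they were -0.00013 to 0.084 for Smad4, -0.054 to 0.057 for Smad5 and -0.087 to 0.017 for Smad6. At 42.5 °C they were -0.050 to 0.031 for Smad5 against 37 °C and -0.065 to 0.049 for Smad3 against 40 °C.

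The replicate block turned Smurf1 to 0.021 at 40 °C for 6 h and Smad5 to 0.013 at 42.5 °C against 37 °C, brought Smad3 at 40 °C for 1 h past the adjusted p threshold (-0.22, adjusted p = 0.0251 by edgeR) and gave 2.70 for Smad7 at 42.5 °C against 37 °C. Same-letter libraries had a mean r of deviations between 0.019 and 0.15. It was highest for 40 °C (1 h) with 37 °C, at 0.095 to 0.18 for same letters and a mean of -0.048 for other letters, where 1 pair missed the 0.1 that was required to take the letters as pairs. With a prior count of 0.5, 3 of the 5 genes most like Smad7 were kept.

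Among the 9 genes, depth limits Smad7 most, at 37 to 53 counts after 6 h at 40 °C and 44 to 79 in the controls used. Genes under the filter on low counts were not tested.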
